A study of Mus musculus with 4 samples.

Results

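The nuclear pore complex is the channel through which proteins and RNA pass between nucleus and cytoplasm, and its subunits are called nucleoporins. Transcripts of 32 genes were followed in mouse 2-cell embryos. Of these, 28 encode nucleoporins and 4 encode the small GTPase Ran and its regulators, chosen by gene symbol. The deposited table holds a row for 31 of the 32 among its 30049 genes. The exception is Nup62, whose transcript level is not analysed here. Wild type F2 zygotes from crosses of BDF1 mice (BDF1 being the cross of C57BL/6 with DBA/2) were cultured for 24 h in KSOM, an embryo medium, with 2% dimethyl sulfoxide (DMSO) or without it. Culture began 18 h after the hormone hCG had induced ovulation, and 50 embryos that had reached the 2-cell stage were pooled for each group. There were 2 control libraries and 2 DMSO libraries, and the labels do not say whether the replicates came from separate matings, so the p-values measure only the spread between these libraries. Levels are TPM, each gene's share of a library's transcripts after correction for transcript length, a unit that does not keep the depth of a library.

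The pore is built as stacked rings around a central channel. The outer rings are assembled from the Y complex, the inner ring anchors the channel proteins, filaments face the cytoplasm, and a basket faces the nucleus. Several channel proteins carry repeats of phenylalanine and glycine that form the barrier, and small molecules cross without help whereas large cargo is carried by importins and exportins. Direction is set by Ran, which is loaded with GTP in the nucleus by Rcc1 and made to hydrolyse it in the cytoplasm by Rangap1 together with Ranbp1 or Ranbp2. In the early embryo the first stores of these transcripts come from the oocyte, and the embryo's own genome is switched on during the 2-cell stage.

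The libraries held the markers of their labelled stage. Oosp1, an oocyte secreted protein, stood at 877 and 576 TPM in control embryos and at 2086 and 1763 TPM in DMSO-treated embryos. Tcstv3, a gene activated in 2-cell embryos, stood at 297 and 209 TPM against 716 and 574 TPM. The summed level of 13 oocyte markers was 1209 and 795 TPM in control against 2961 and 2293 TPM in DMSO-treated embryos, and that of 9 genes activated at the 2-cell stage was 886 and 636 TPM against 2453 and 1712 TPM. Oosp1 made up most of the oocyte sum, and the list without it summed to 332 and 219 TPM against 875 and 530.0 TPM. Over all genes tested, limma (described below) called 6.42% higher and 14.1% lower, and the counts of the marker lists stand beside these shares. An unadjusted p under 0.05 was found for 40.2% of all genes. Of the 13 oocyte markers 12 were tested and 2, Oosp1 and Bmp15, were called higher. A further 5 had a fitted difference below 0, namely Padi6 (-0.80), Mos (-0.54), Zp3 (-0.42), Khdc3 (-0.22) and Tle6 (-0.0476), and were not called, while Nlrp5 stayed under 1 TPM in every library. Of the 9 activated genes 4 were called higher. Their part in the values below was not tested. Of 13 markers of cumulus and granulosa cells, which surround the oocyte, Amh and Inhba were at 0 in every library and 8 stayed below 1 TPM in every library. Their sum was 40.9 and 33.4 TPM in control and 14.9 and 21.7 TPM in DMSO libraries, most of it from Amhr2 (36.8 and 29.7 TPM against 8.29 and 16.5 TPM), the 1 called lower of 3 tested. The list without Amhr2 summed to 4.03 and 3.72 TPM against 6.59 and 5.25 TPM. The 6 sperm and testis markers summed to 2.96 and 3.38 TPM against 13.5 and 8.69 TPM (Prm2 the most abundant, Tnp2 at 0), and both of the 2 tested were called higher. The 5 blood markers summed to 11.02 and 4.11 TPM against 10.7 and 16.2 TPM (Hba-a2 the most abundant, Hbb-bt at 0), and 0 of 2 tested were called by limma or had an unadjusted p under 0.05.

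As a group the pore and Ran genes took a smaller share of the transcripts in DMSO-treated embryos. The 31 genes summed to 1972 and 2007 TPM in the control libraries and to 1457 and 1409 TPM in the DMSO libraries, 72.0% of the control mean. The groups did not overlap. Tpr, the most abundant in control, carried much of this difference, and the other 30 genes summed to 1455 and 1453 TPM against 1224 and 1144 TPM, 81.5% of the control mean. The 20 most abundant genes of each library took 22.1% and 23.6% of the table's TPM in control and 29.4% and 35.1% in DMSO-treated embryos, a share that moved with the groups. In these pooled embryos, fewer cells holding a transcript and less of it per cell cannot be told apart. Of the 31 genes, 27 reached a mean of 1 TPM and were tested. limma, a linear model that shares variance information between genes, was fitted on log2(TPM + 1), so the fold changes below are on that scale and understate the change of low genes. At an adjusted p under 0.05 it called 8 of the 27, or 29.6%, and all 8 were lower. Over all 12038 genes tested 20.5% were called, 14.1% lower and 6.42% higher. These calls split into 1697 lower and 773 higher, against 1121 and 1076 after quantile normalization and 1094 and 955 when the 20 most abundant genes were left out of the scaling. The pore and Ran genes called numbered 4 of 27 (14.8%) after quantile normalization, against 18.3% of all genes called in either direction and 9.31% called lower, and 5 of 27 (18.5%) with the latter scaling, against 17.0% and 9.09%. Of the pore and Ran genes 0 were called higher, and Nup214 was the only one with a higher level and an unadjusted p under 0.05 (unadjusted p = 0.0460). The pore and Ran genes tested had a higher median control level than all genes tested (42.0 against 8.30 TPM). With only genes averaging at least 5 TPM in the fit, 33.3% of the pore and Ran genes were called, all lower. Of all genes 32.8% were then called, and 22.5% were called lower.

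The 8 genes called lower were Nup107, Nup133, Nup160 and Nup43 of the outer ring, Ranbp2 of the cytoplasmic filaments, Tpr of the nuclear basket, and Rcc1 and Ranbp1 of the Ran cycle. Both DMSO libraries lay below both control libraries for 15 of the 27 genes, or 55.6%, against 38.7% of all genes tested. The reverse order held for 4 of 27, or 14.8%, against 31.1% of all genes. The median log2 fold change was -0.45 over the 27 genes and -0.09 over all genes tested. After quantile normalization it was -0.15 over the 27 genes (-0.16 relative to the median of all genes), and with scaling without the 20 most abundant genes it was -0.29. The calls depended on which libraries were included. Without control replicate 1, control replicate 2 or DMSO replicate 1, limma called none of the 8 and no gene of the whole table. Without DMSO replicate 2, which leaves 1 library in the DMSO group, it still called some of the 8 and some of all genes. For all 8, both DMSO libraries lay below both control libraries, so leaving out 1 library could not change the sign. The fold changes of the 8 then ran from -3.12 to -0.88, the lone library of a group being assumed to vary like the others.

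**Figure D1:**
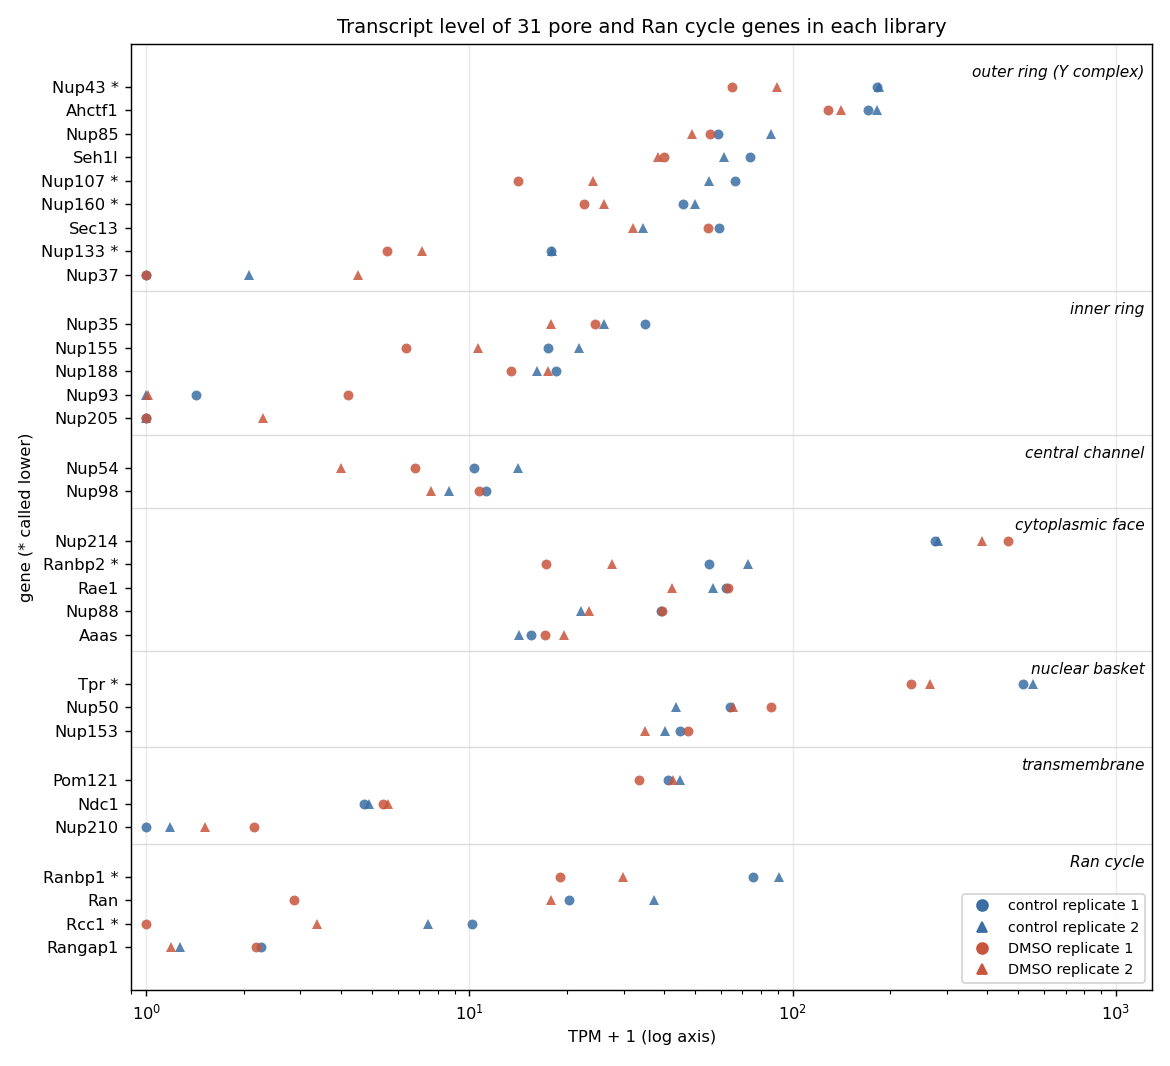
Level of each of the 31 genes in each library, as TPM + 1 on a log axis, grouped by place in the pore; blue marks are control and red marks DMSO libraries, circles replicate 1 and triangles replicate 2, and an asterisk marks the 8 genes called lower. For 15 of the 27 genes tested both red marks lie to the left of both blue marks, and Tpr (517 and 555 TPM in control) and Nup214 (276 and 280.2 TPM) are the most abundant.

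Of the 9 outer ring genes tested 4 were called, all lower, where 14.1% of all genes were called lower. The 9 listed proteins belong to the Y complex, which forms the scaffold of the pore and also sits at kinetochores in mitosis. Their summed level was 668 and 666 TPM in control and 379 and 403 TPM in DMSO-treated embryos. Nup107, which lies in the stem of the Y, was at 65.2 and 54.1 TPM in control and at 13.1 and 23.1 TPM in DMSO-treated embryos. It fell by 1.71 on the log2 scale (SE 0.34, adjusted p = 0.0257), and the highest DMSO library stood at less than the lowest control library. Nup107 lies at chr10:117750621-117792705 of GRCm38. Nup133 (chr8:123897123-123949265), the neighbour of Nup107 at the tip of the stem, was at 16.9 and 17.0 TPM in control and at 4.55 and 6.16 TPM in DMSO-treated embryos. It fell by 1.51 (SE 0.31, adjusted p = 0.0269). The 2 control libraries agreed closely here, and both DMSO libraries were far below them. Of the 31-base words in Nup133 transcripts 10.8% are shared with other genes, mainly Gm29773 and Gm45890, whose levels are not analysed here.

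Nup43 (chr10:7667503-7678881), a small protein on an arm of the Y, was the most abundant of the outer ring at 182 and 185 TPM in control. It was at 63.8 and 88.6 TPM in DMSO-treated embryos, and fell by 1.27 on the log2 scale (SE 0.27, adjusted p = 0.0290). After quantile normalization Nup43 was outside the threshold (adjusted p = 0.0545). Nup160 (chr2:90677215-90736328), at the end of another arm, was at 44.9 and 48.9 TPM in control and at 21.6 and 25.0 TPM in DMSO-treated embryos. It fell by 0.98 (SE 0.27, adjusted p = 0.0461), the weakest of these calls. Nup160 was not called with median-ratio scaling (adjusted p = 0.0581), with quantile normalization (0.0855), with scaling that leaves out the 20 most abundant genes (0.0772), with a pseudocount of 0.1 (0.0523) or without a variance trend (0.0617).

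The other 5 outer ring genes were not called. Seh1l was at 72.7 and 60.2 TPM in control and 39.1 and 37.3 TPM in DMSO-treated embryos (log2 fold change -0.78, SE 0.26, adjusted p = 0.0765). Nup85, its binding partner, was at 57.7 and 84.7 TPM against 54.5 and 47.8 TPM. Ahctf1, which brings the Y complex to chromatin when pores form after mitosis, was at 170.1 and 181 TPM against 128 and 140.4 TPM. For these 3 genes the groups did not overlap, with log2 differences smaller than those of the called genes. Sec13, which also coats vesicles leaving the endoplasmic reticulum, was at 58.2 and 33.6 TPM against 53.8 and 31.1 TPM, so that its replicates differed more than its groups. Nup37 was listed at 0 and 1.08 TPM in control and at 0 and 3.54 TPM in DMSO-treated embryos. The proteins of the Y complex are built into the pore together, but their transcripts were spread in control embryos from a mean of 0.542 TPM for Nup37 to 183 TPM for Nup43.

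Transcripts of the inner ring and the central channel gave 0 calls by limma, where 20.5% of all genes were called. An unadjusted p under 0.05 was found for 1 of 3 inner ring genes tested (Nup155) and 1 of 2 channel genes (Nup54). Over all genes tested that share was 40.2%. Nup155, which links the inner ring to the membrane, was at 16.6 and 20.9 TPM in control and at 5.38 and 9.62 TPM in DMSO-treated embryos (log2 fold change -1.25, SE 0.36, adjusted p = 0.0526). Its groups did not overlap, and with only the genes at a mean of 5 TPM or more in the fit it was called (adjusted p = 0.0396). Nup35, another membrane-binding subunit, was at 33.8 and 25.2 TPM against 23.5 and 16.9 TPM. Of its 31-base words 43.0% are shared, mostly with Gm4353, which was at 22.2 and 13.4 TPM against 15.9 and 10.6 TPM, and the sum of Nup35 and the genes in the table that share its words overlapped between groups (56.9 and 39.0 TPM against 45.0 and 29.6 TPM). Nup188, a large scaffold protein, was at 17.6 and 15.2 TPM against 12.5 and 16.6 TPM, within the spread of its replicates. Its partners in the inner ring, Nup93 and Nup205, were below the filter. Nup93 was listed at 0.423 and 0 TPM in control and at 3.21 and 0.00883 TPM in DMSO-treated embryos, and Nup205 at 0 in 3 libraries and at 1.29 TPM in DMSO replicate 2. A listed 0 in this table does not show that a transcript was absent, since Nlrp5, an abundant maternal transcript, was at 0 in 2 libraries and at 0.142 and 0.129 TPM in the others, and Xpot, the exportin of tRNA, was at 0 in all 4.

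Nup54, which carries phenylalanine-glycine repeats in the channel, was at 9.31 and 13.1 TPM in control and at 5.78 and 3.02 TPM in DMSO-treated embryos (log2 fold change -1.21, SE 0.39, adjusted p = 0.0676). The groups did not overlap. Of its words 21.1% are shared, mainly with Gm15790, which reached at most 0.163 TPM. Nup98, whose precursor is cleaved into a repeat protein and the outer ring subunit Nup96, was at 10.3 and 7.65 TPM against 9.67 and 6.61 TPM, and its groups overlapped.

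The 5 genes of the cytoplasmic face did not move alike. Ranbp2, the large filament protein that binds Ran and acts as a SUMO ligase, was at 54.0 and 72.0 TPM in control and at 16.3 and 26.6 TPM in DMSO-treated embryos. It lies at chr10:58446920-58494356 and fell by 1.54 on the log2 scale (SE 0.34, adjusted p = 0.0304), and after quantile normalization it was outside the threshold (adjusted p = 0.0525). Nup214, which binds exporting complexes and the mRNA export helicase, was the second most abundant of the 31 genes in control, the most abundant in DMSO-treated embryos, and had the reverse order. It was at 276 and 280.2 TPM in control and at 462 and 384 TPM in DMSO-treated embryos, without overlap (log2 fold change 0.60, SE 0.24, adjusted p = 0.118), and this difference did not pass the test. Because of Nup214 the summed level of this face was 444 and 442 TPM in control and 596 and 493 TPM in DMSO-treated embryos. Aaas, a protein anchored by Ndc1, was at 14.5 and 13.2 TPM against 16.1 and 18.6 TPM. Nup88, the partner of Nup214, was at 38.3 and 21.1 TPM against 38.4 and 22.5 TPM, which made replicate 1 high in both groups. Rae1, which binds mRNA and Nup98, was at 61.3 and 55.8 TPM against 62.4 and 41.2 TPM. Both of the last 2 overlapped between groups.

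**Figure D2:**
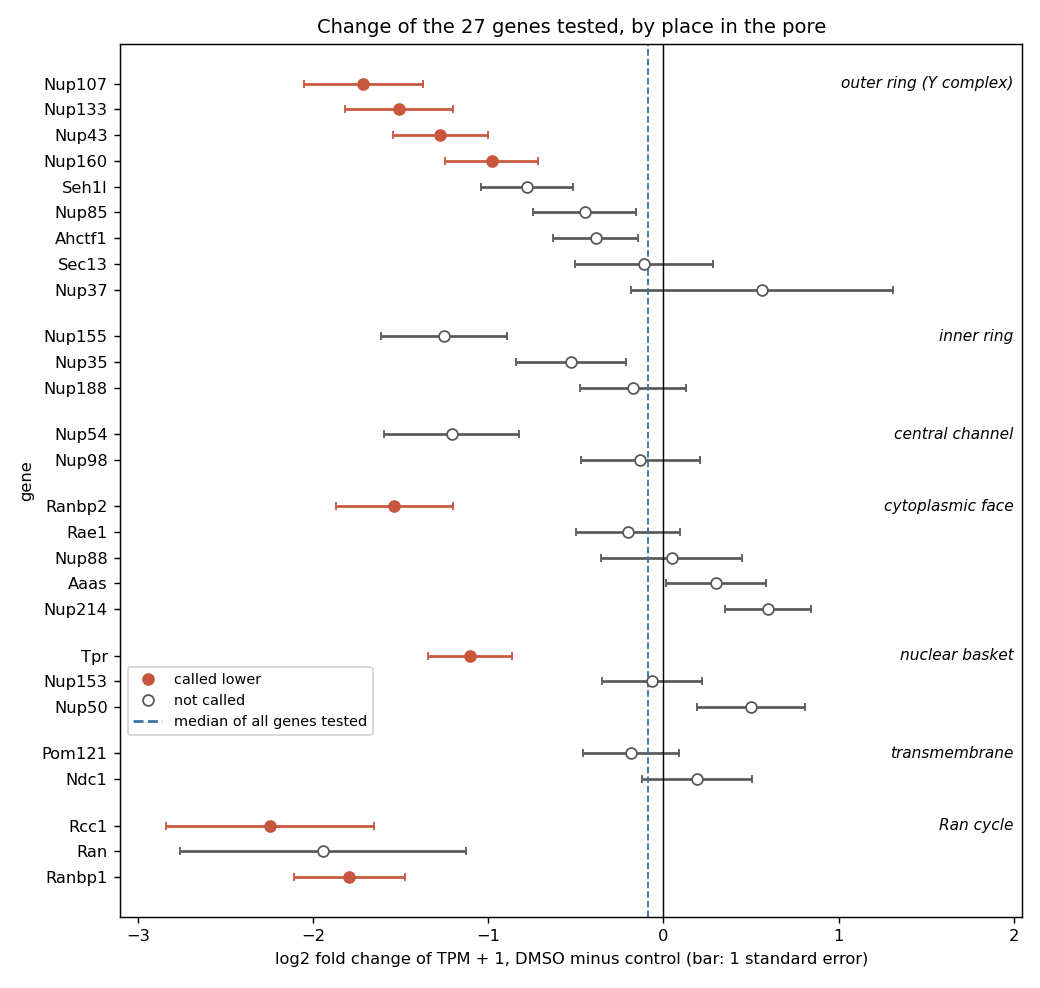
Log2 fold change of TPM + 1 (DMSO minus control) of the 27 genes tested, with bars of 1 standard error from limma, grouped by place in the pore; filled red points are called lower and the dashed line is the median of all genes tested (-0.09). The 4 outer ring calls lie between -1.71 and -0.98, the 3 Ran cycle genes between -2.25 and -1.79, and the cytoplasmic face runs from -1.54 for Ranbp2 to 0.60 for Nup214.

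The nuclear basket also differed within itself. Tpr forms the filaments of the basket and was the most abundant of the 31 genes in control, at 517 and 555 TPM. In DMSO-treated embryos it was at 232 and 265 TPM, and fell by 1.11 on the log2 scale (SE 0.24, adjusted p = 0.0299). Its level in each DMSO library stood under that in each control library, and its difference in TPM between group means was the largest of the 31 genes. Under quantile normalization and under scaling without the 20 most abundant genes Tpr was just outside the threshold (adjusted p = 0.0509 and 0.0506). Nup153, which holds Tpr at the pore, was at 43.9 and 39.4 TPM against 46.4 and 34.0 TPM, and the DMSO values enclosed the control values. Nup50, a mobile basket protein that helps to release importin cargo, was at 63.2 and 42.5 TPM against 84.6 and 64.4 TPM (log2 fold change 0.50, SE 0.31, adjusted p = 0.260). The lower DMSO library stood just above the higher control library, and the difference did not pass the test. The fold change of Nup50 was 0.78 without control replicate 1, 0.22 without control replicate 2 and 0.77 after quantile normalization.

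The genes of proteins that cross the nuclear membrane were not called. Pom121 was at 40.1 and 43.9 TPM in control and at 32.5 and 41.7 TPM in DMSO-treated embryos, and 11.4% of its words are shared with Nsun5. Ndc1, the membrane anchor of the pore, was at 3.73 and 3.90 TPM against 4.39 and 4.61 TPM (log2 fold change 0.19, SE 0.31, adjusted p = 0.667). Nup210, below the filter, was listed at 0 and 0.181 TPM against 1.16 and 0.517 TPM. Of the 2 genes tested limma called 0, and 0 had an unadjusted p under 0.05, beside 20.5% and 40.2% of all genes.

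Of the groups by place and role, the Ran cycle had the lowest summed level relative to control. Its 4 genes summed to 104 and 133 TPM in control and to 21.2 and 48.3 TPM in DMSO-treated embryos, 29.3% of the control mean. The share was 40.8% without DMSO replicate 1, 17.9% without DMSO replicate 2, and 27.97% when Ran, whose level is uncertain, was left out of the sum. Ranbp1, the cytoplasmic cofactor of GTP hydrolysis by Ran, was at 74.3 and 89.8 TPM in control and at 18.1 and 28.9 TPM in DMSO-treated embryos. It lies at chr16:18239784-18248732 and fell by 1.79 on the log2 scale (SE 0.32, adjusted p = 0.0221), the smallest adjusted p of the 8. Of its words 20.2% are shared, mainly with Gm49776, whose level is not analysed here. Rcc1 (chr4:132331919-132353605), the exchange factor that loads Ran with GTP on chromatin, was at 9.22 and 6.44 TPM in control, and in DMSO-treated embryos it was listed at 0 in replicate 1 and at 2.37 TPM in replicate 2. The fitted difference was -2.25 (SE 0.59, adjusted p = 0.0433). Both DMSO values were below both control values, and the size of the fitted difference depended on the value listed at 0, being -1.37 without DMSO replicate 1 and -3.97 with a pseudocount of 0.1. Rcc1 was not called with that pseudocount (adjusted p = 0.0955), with median-ratio scaling (0.0536) or with the scaling that leaves out the 20 most abundant genes (0.0644).

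Ran itself was at 19.4 and 36.1 TPM in control and at 1.86 and 16.9 TPM in DMSO-treated embryos (log2 fold change -1.94, SE 0.82, adjusted p = 0.126). Its groups did not overlap, but the replicates of each group were far apart, DMSO replicate 1 being the lowest, and without that library the fold change was -0.62. Without DMSO replicate 2 it was -3.26 and Ran was called (adjusted p = 0.0299). Of its words 18.8% are shared with other genes. Gm13461 holds 17.1% of them and was at 0 and 1.56 TPM in control and at 3.39 and 7.77 TPM in DMSO-treated embryos, and Rasl2-9 holds 5.23% and was at 7.38 and 6.55 TPM against 15.6 and 6.25 TPM. Summed over Ran and these genes the levels were 26.8 and 44.2 TPM against 20.8 and 30.9 TPM, which overlap. The split of reads between Ran and these copies is an estimate of the quantification, so the level of Ran is uncertain. Rangap1, which makes Ran hydrolyse GTP and is held at the pore by Ranbp2, was at 1.26 and 0.269 TPM against 1.19 and 0.194 TPM, below the filter.

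Promoters of these genes were searched for short motifs of factors known to act at housekeeping genes. The RefSeq promoter table (GRCm38.p6, 250 bases before to 50 after the start) held an entry for 28 of the 32 genes, and for 17492 protein-coding genes in all. Seh1l, Nup43, Nup35 and Nup85 had no entry. The core of the site of NRF1, a regulator of genes for mitochondria and growth, was searched as GCGCATGC on both strands. It was present in 6 of 28 promoters (21.4%), those of Nup107, Nup50, Nup62, Ran, Ranbp1 and Rcc1, against 3.94% of all protein-coding genes. Among the 7 promoters of called genes it was present in 3, and among the other 21 in 3. Below are the 250 bases before the start of Nup107, Ranbp1, Ran and Nup50, shown because the first 2 were called lower, Ran is the GTPase that Ranbp1 serves, and Nup50 holds the motif at 2 places and was not called. Capitals mark the NRF1 core read on either strand, and where the 2 strands match over each other the capitals run on.
Nup107 (chr10:117792706-117792955, minus strand): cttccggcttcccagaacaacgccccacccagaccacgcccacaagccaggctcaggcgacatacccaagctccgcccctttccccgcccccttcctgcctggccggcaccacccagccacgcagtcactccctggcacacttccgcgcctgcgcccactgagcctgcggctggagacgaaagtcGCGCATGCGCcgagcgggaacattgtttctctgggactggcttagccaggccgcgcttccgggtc
Ranbp1 (chr16:18248695-18248944, minus strand): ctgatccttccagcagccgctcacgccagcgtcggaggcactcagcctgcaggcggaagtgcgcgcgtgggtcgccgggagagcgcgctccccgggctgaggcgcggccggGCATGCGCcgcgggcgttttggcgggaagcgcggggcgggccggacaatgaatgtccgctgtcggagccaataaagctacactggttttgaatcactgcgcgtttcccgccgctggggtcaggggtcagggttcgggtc
Ran (chr5:129019906-129020155, plus strand): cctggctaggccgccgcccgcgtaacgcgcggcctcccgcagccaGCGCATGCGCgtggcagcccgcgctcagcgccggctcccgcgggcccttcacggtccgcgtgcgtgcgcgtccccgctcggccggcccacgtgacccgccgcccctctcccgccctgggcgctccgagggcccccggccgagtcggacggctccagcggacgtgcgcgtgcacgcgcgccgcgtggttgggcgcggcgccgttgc
Nup50 (chr15:84923178-84923427, plus strand): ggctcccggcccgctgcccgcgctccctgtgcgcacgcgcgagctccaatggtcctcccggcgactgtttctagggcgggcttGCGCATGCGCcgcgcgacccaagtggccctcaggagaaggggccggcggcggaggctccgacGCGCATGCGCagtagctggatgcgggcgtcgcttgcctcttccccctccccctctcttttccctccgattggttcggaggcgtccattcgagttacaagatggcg

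Counted from the start, with -1 the last base before it, the capitals begin at -65 in Nup107, at -139 in Ranbp1, at -205 in Ran, and at -167 and -105 in Nup50. In Rcc1 the match begins at base 37 of the transcribed part. The other motifs searched, on both strands, were those of SP1 (GGGCGG), ETS factors (CCGGAAG), YY1 (AAGATGGC), the CCAAT box (CCAAT) and the TATA box (TATAAA). They were present in 20, 7, 4, 10 and 3 of the 28 promoters (71.4%, 25.0%, 14.3%, 35.7% and 10.7%), against 49.2%, 12.9%, 3.57%, 42.3% and 14.8% of all protein-coding genes. No match to one of these 5 motifs overlapped the capitals above. A match shows only that the letters are there.

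The 27 genes tested were mostly well expressed, with a median control level of 42.0 TPM against 8.30 TPM for all genes tested. Across them the log2 fold change had Spearman's rho of -0.163 with the control level and 0.0275 with the length of the longest transcript (Pearson's r of -0.139 and 0.0886 on log2 values). These are descriptions over genes measured in the same 4 libraries. Across the 31 genes the libraries of a group had like profiles, Pearson's r of log2(TPM + 1) being 0.982 for the control pair and 0.912 for the DMSO pair. Over the pairs that cross the groups r ran from 0.851 to 0.948, so the 2 DMSO libraries were no closer to each other than DMSO replicate 2 was to the control libraries. DMSO replicate 1 was under DMSO replicate 2 for all 8 called genes and for 16 of the 27 tested.

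**Figure D3:**
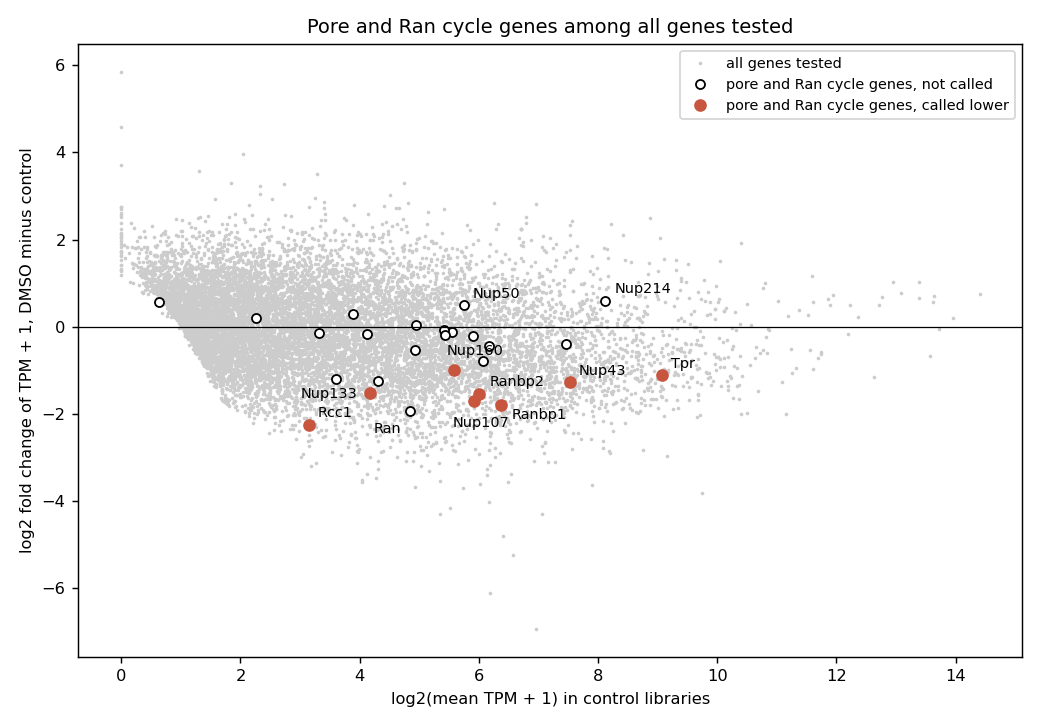
Log2 fold change of TPM + 1 (DMSO minus control) against the log2 mean TPM + 1 in control, for all 12038 genes tested (grey) and the 27 pore and Ran cycle genes (open when not called, red when called lower). The red points lie from -2.25 (Rcc1) to -0.98 (Nup160), inside the range of the other genes, and are spread over levels from Rcc1 to Tpr.

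Genes that work with the pore were set beside it, by whole lists of the pathways, which were chosen with earlier results of these libraries known. The counts stand beside 14.1% of all genes called lower, 20.5% called in either direction and 40.2% with an unadjusted p under 0.05. Of 10 further pore and Ran genes tested, limma called 1 lower and 0 higher (10.0%), with 3 at an unadjusted p under 0.05. The median of the 10 was -0.53, and -0.24 after quantile normalization. Among the 3 was Nupl2, a nucleoporin of the cytoplasmic face, with a higher level in DMSO-treated embryos that was not called (1.33 and 0.802 TPM against 4.91 and 3.20 TPM, log2 fold change 1.28, adjusted p = 0.0522). Under each of the 3 scalings tried Nupl2 was called higher (adjusted p from 0.0464 to 0.0472), as it was without a variance trend (0.0486). The called gene was Tmem33, a membrane protein found at the pore, at 20.4 and 32.8 TPM in control and 7.69 and 11.1 TPM in DMSO-treated embryos (log2 fold change -1.39, SE 0.36, adjusted p = 0.0405). It was not called under the scalings tried (adjusted p from 0.0576 to 0.0615) or when any 1 library was left out, so under the scalings the list had 0 genes called lower and 1 called higher by limma.

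Of 17 mRNA export genes tested, limma called 3 lower and 0 higher (17.6%), with 9 at an unadjusted p under 0.05 and a median of -0.63. Of the 9, Eny2, a subunit of the export complex TREX-2, had a higher level in DMSO-treated embryos (84.6 and 84.5 TPM against 189 and 123 TPM, log2 fold change 0.84, adjusted p = 0.0823), and after quantile normalization it was called higher (adjusted p = 0.0400) in a list that then had 1 gene called lower. Sarnp, of the export complex TREX, was at 132 and 131 TPM in control and at 31.5 and 46.1 TPM in DMSO-treated embryos, and fell by 1.76 (SE 0.29, adjusted p = 0.0208). Thoc1 and Thoc3, of the same complex, fell by 1.03 and 0.94. Thoc1 went from 74.9 and 86.7 TPM to 35.3 and 43.2 TPM and Thoc3 from 119 and 96.2 TPM to 56.7 and 53.6 TPM, and neither was called under quantile normalization (adjusted p = 0.103 and 0.0986), without a variance trend (0.0601 and 0.0698) or with scaling without the 20 most abundant genes (0.0716 and 0.0786). Of the words of Sarnp 44.0% and of those of Thoc1 23.4% are shared with other genes.

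Among 22 importins and exportins tested, 6 were called lower and 0 higher (27.3%), with 11 at an unadjusted p under 0.05 and a median of -0.58. The 11 included importin alpha genes with a higher level in DMSO-treated embryos that were not called, Kpna7 (14.8 and 4.65 TPM against 74.6 and 22.4 TPM, log2 fold change 2.15, adjusted p = 0.0647, and called higher at 0.0461 with the filter at 5 TPM) and Kpna3 (109 and 67.7 TPM against 230.3 and 129.6 TPM, log2 fold change 0.999, adjusted p = 0.101). Without DMSO replicate 2, Kpna7 and another importin alpha gene, Kpna1, were called higher (adjusted p = 0.0443 and 0.0425). After quantile normalization 4 of the 22 genes were called, all lower. Of those with a mean of at least 10 TPM, the most strongly lowered were the import receptors Ipo7 (65.1 and 56.2 TPM to 10.5 and 19.6 TPM, log2 fold change -2.00), Ipo4 (218 and 253 TPM to 62.2 and 88.0 TPM, -1.65) and Ipo5 (153 and 144 TPM to 43.4 and 51.0 TPM, -1.64). None of the 3 had overlapping groups, and 53.1% of the words of Ipo4 and 10.6% of those of Ipo5 are shared with other genes. Among 14 genes of the nuclear envelope and lamina, 4 were called lower and 0 higher (28.6%), with 8 at an unadjusted p under 0.05 and a median of -0.86. Tor1b, an ATPase of the space between the nuclear membranes, was at 35.7 and 34.0 TPM against 5.04 and 8.23 TPM, and fell by 2.26. Zmpste24, the protease that matures lamin A, was at 56.4 and 86.5 TPM against 19.3 and 21.2 TPM, and fell by 1.74. Lemd3, a protein of the inner membrane, was at 29.1 and 44.3 TPM against 6.93 and 14.7 TPM, and fell by 1.73. Lemd3 was outside the threshold under median-ratio scaling (adjusted p = 0.0518), quantile normalization (0.0568) and scaling without the 20 most abundant genes (0.0524), and under each of the last 2 the list had 2 genes called. Beside these lists, the 24 nucleoporins tested had a median of -0.29 with 6 called (25.0%). After quantile normalization their median was -0.0774 with 2 called, both lower (8.33%). Beside these stood 18.3% of all genes called in either direction and 9.31% called lower. With scaling without the 20 most abundant genes their median was -0.14 with 4 called, all lower (16.7%, beside 17.0% and 9.09% of all genes). Without DMSO replicate 1 it was -0.50. The 3 Ran cycle genes had a median of -1.94 with 2 called. This median is the value of Ran, whose level is uncertain. The median was -1.37 without DMSO replicate 1 and -3.12 without DMSO replicate 2, each time the value of Rcc1. Nupl2, Eny2 and the importin alpha genes were chosen after their values were seen. The lists were not tested against each other.

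**Figure D4:**
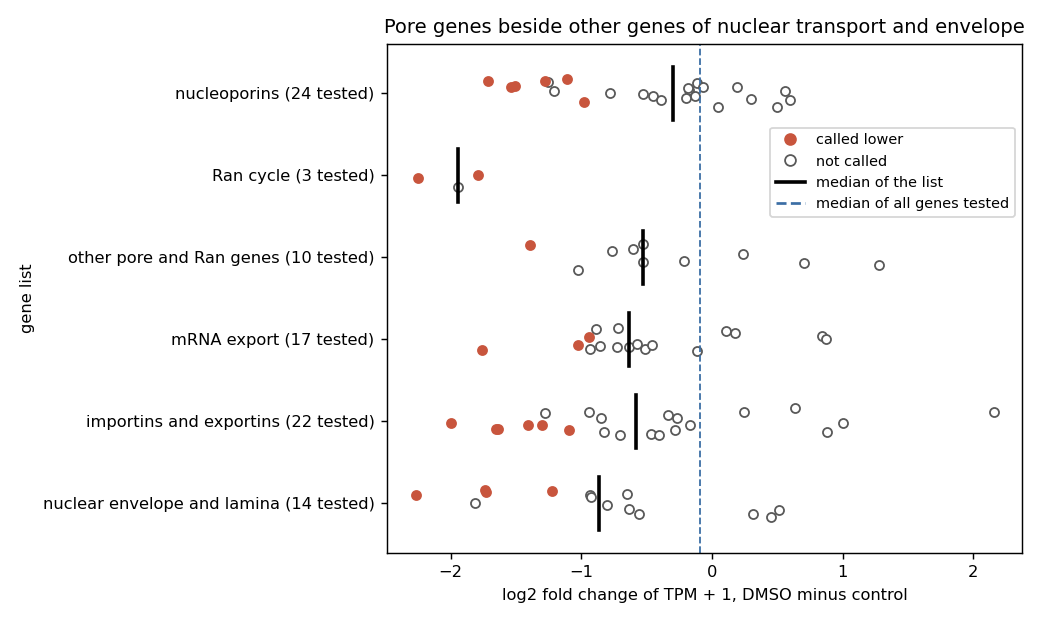
Log2 fold change of TPM + 1 (DMSO minus control) of each gene tested in 6 lists, with filled red points for genes called lower, black bars for the median of the list and a dashed line for the median of all genes tested (-0.09); points are shifted vertically so that they can be told apart. The medians of the lists run from -1.94 (Ran cycle, 3 genes) to -0.29 (24 nucleoporins), and red points occur in each list.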

How the data were processed

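The authors quantified 4 libraries by kallisto against Ensembl transcripts of GRCm38 (mm10), summed transcripts per gene with tximport and deposited TPM values, the unit used here. TPM keeps no depth, so no counting error was derived. Pooled embryos had been lysed directly and their cDNA amplified with a low-input kit that does not mark strand, so reads of overlapping genes (Pom121 and Nsun5, for example) cannot be told apart. Gene names, coordinates and transcripts came from GENCODE M21 (GRCm38), which named 29589 of 30049 identifiers. Libraries were grouped by their titles, and the columns named treated were taken as DMSO, the only treatment. log2(TPM + 1) was fitted for genes whose mean reached 1 TPM, over the whole table with limma 3.58.1 in R 4.3.3 (eBayes with trend, no block, two-sided, Benjamini-Hochberg over 12038 genes, called under 0.05). The code was also run on simulated data. Its changes were larger than those of the pore and Ran genes called and its noise was independent, so it does not bear on these calls. With 2 against 2 libraries, an exact permutation test cannot go below p = 0.333. Shared sequence was counted as 31-base words on either strand. The 32 genes were all accounted for, with values in full for called genes and for the largest and smallest change per place in the pore; named besides were, per further list, called genes averaging 10 TPM or more, at most 3 per direction. Nupl2, Eny2, the importin alpha genes, Xpot and oocyte markers other than Oosp1 were named after their values were seen. Members and lists were chosen with earlier results of these data known. Protein sequences were not used here. Python 3.11.15, pandas 2.3.3 and matplotlib 3.10.9 served the other steps.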

Additional observations from a re-analysis of the deposited data

How the results depend on the processing

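The count of pore and Ran genes called lower, 8, was 6 to 8 with a pseudocount of 0.1, a filter at 5 TPM, no variance trend or median-ratio scaling. The shares called were 22.2%, 33.3%, 25.9% and 22.2%, beside 17.1%, 32.8%, 16.8% and 18.6% of all genes called in either direction and 12.0%, 22.5%, 11.6% and 11.3% called lower. The count was 4 with quantile normalization and 5 with scaling without the 20 most abundant genes, where their median was -0.15 and -0.29 against -0.45. The share called, 14.8% and 18.5%, then stood beside 18.3% and 17.0% of all genes called in either direction and 9.31% and 9.09% called lower (29.6% beside 20.5% and 14.1% before). The latter scaling shifted the all-gene median (-0.09) to 0.04, and relative to it the median of the pore and Ran genes was -0.36 before and -0.34 after, but -0.16 with quantile normalization and -0.20 with no filter. With no filter on low values, 22257 genes were tested, 0 of them and 0 pore and Ran genes were called, and the median over 31 genes was -0.20. All 8, picked by their p in the same libraries, then had an unadjusted p under 0.05, as did 5368 of all genes (24.1%). Without 1 library, the calls were 0 to 8 of these genes and 0 to 1883 of all genes. The causes were not tested.

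The labels do not say that same-numbered libraries belong together, and there are only 2 such pairs. Their deviations from the group means correlated across genes (r = 0.354), and with the replicate block 5132 of all genes, 12 pore and Ran genes lower and 1 higher, Nup214, were called, all 8 among them, which made 48.1% of the genes tested beside 42.6% of all genes (44.4% beside 24.8% for calls lower). Nup155, Nup54, Ran and Seh1l joined them. With the block, 9 importins and exportins were called lower and 2, Kpna3 and Kpna7, higher (50.0% of the list). Of the mRNA export genes 9 were called lower and 2, Eny2 among them, higher (64.7%). The further pore and Ran genes had 2 called lower and 1, Nupl2, higher (30.0%). For the nuclear envelope and lamina the calls were 8 lower and 0 higher (57.1%).

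Genes not called changed sign in places. Quantile normalization turned Sec13 (0.14), Rae1 (0.11), Nup153 (0.18) and Pom121 (0.0594) positive, and scaling without the 20 most abundant genes turned Sec13 (0.0465), Nup98 (0.0106) and Nup153 (0.0917). Without 1 library, Nup37 ran from -0.53 to 1.65, Sec13 from -0.50 to 0.28, Nup188 from -0.36 to 0.0183, Nup98 from -0.38 to 0.11, Nup88 from -0.37 to 0.46, Rae1 from -0.49 to 0.0911 and Nup153 from -0.28 to 0.15. Depth is unknown, so low genes such as Nup93 and Rcc1 are uncertain. Among the pore and Ran genes tested the largest SE was that of Ran (0.82, against 0.59 for Rcc1).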
